A study of Mus musculus with 14 samples.

Results

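The genes described here encode phosphoinositide 3-kinase (PI3K) subunits, the kinase Akt1, a lipid phosphatase and a part of the kinase complex that activates Akt. They were chosen by name, as the probe sets of the array annotated to a single gene among Akt1, Akt2, Pik3r1, Pik3r5, Pik3cb, Pik3cd, Pik3cg, Inpp5d and Rictor. Of these 9 genes, 8 were measured, with 195 of 179496 probe sets and 8 of 15803 genes in all, and Akt2 was not analysed here. Rictor was found under an older symbol. A probe set is a group of probes that mostly covers a single exon, and a gene level is the mean of the log2 values of its probe sets.

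RNA came from frozen thymic lymphomas of mice of 2 transposon models of T-cell acute lymphoblastic leukaemia, 7 tumours labelled Vav-SB and 7 labelled CD4-SB. SB stands for Sleeping Beauty, a transposon system whose insertions mutate genes, and all 14 tumours carry it. The Vav promoter is active in blood stem and progenitor cells and their descendants, and the CD4 promoter in T-lineage cells from the double-positive stage of thymocytes onward. The sources used here do not give the full genotypes, the ages or whether each tumour came from its own animal, so p-values measure only the spread between these tumours. The 7 CD4-SB tumours share 4 first numbers in their titles (replicates 1 and 2 share a number, and replicates 5, 6 and 7 share another), while the 7 Vav-SB tumours carry 7. RNA input was 50 ng, amplified before labelling. Y-linked genes were high in 3 Vav-SB tumours and in 1 CD4-SB tumour.

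PI3K enzymes phosphorylate a membrane lipid and so make PIP3, a docking site for kinases. Class IA enzymes pair a catalytic subunit with a regulatory subunit such as the Pik3r1 product and act below antigen, cytokine and costimulatory receptors. The class IB enzyme pairs the Pik3cg product with the Pik3r5 or Pik3r6 product and acts below G protein-coupled receptors. Akt binds PIP3, is phosphorylated by Pdpk1 and by mTOR complex 2, and in thymocytes carries signals of the pre-T-cell receptor, Notch and interleukin 7. Phosphatases remove phosphates from PIP3, and Inpp5d encodes the 5-phosphatase of blood cells known as SHIP1.

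T-lineage markers were high in both models: the mean level of 9 such genes was 10.66 ± 0.15 (SD, n = 7) for the Vav-SB tumours and 10.10 ± 0.46 (SD, n = 7) for the CD4-SB tumours, against a median of 7.22 over all genes. Lck, another such marker, was not analysed here. Of the 9, 2 (Cd3g and Cd2) were higher in Vav-SB past the threshold used below, and 0 in CD4-SB. An unadjusted limma p under 0.05 was reached by 6 of the 9, all higher in Vav-SB. Over 49 marker genes of stromal, B, dendritic and myeloid cells, the mean level was 7.70 ± 0.27 (SD, n = 7) for Vav-SB and 8.46 ± 0.44 (SD, n = 7) for CD4-SB (exact permutation test, two-sided, p = 0.00408). It ran from 7.42 to 8.16 in Vav-SB and from 7.80 to 8.98 in CD4-SB, where replicates 2 and 7 lay within the Vav-SB range. Of the 49 markers, 15 were higher in CD4-SB and 1 in Vav-SB past the threshold used below. Differences were therefore refitted with this marker level as a covariate, and, as a check chosen after seeing the data, with the 7 Vav-SB tumours and only those 2 CD4-SB tumours. Both values stand beside each of the 5 genes called among the 8. In bulk tumours, fewer cells of a type and less RNA per cell cannot be told apart.

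Among the 8 genes, 5 differed between the models (limma, Benjamini-Hochberg adjusted p under 0.05 over all 15803 genes), where 14.5% of all genes did. Vav-SB had the higher Pik3cg and Rictor (2 of 8, where 7.28% of all genes were higher in that model), and CD4-SB the higher Inpp5d, Pik3cb and Pik3cd (3 of 8, where 7.18% were). The catalytic subunits thus moved in both directions. The models did not overlap in 2 of the 8, Inpp5d and Pik3cb, nor in 4.04% of all genes. With the marker covariate 0 of the 8 passed, where 2.86% of all genes did, and 3 (Inpp5d, Pik3cg and Rictor) had an unadjusted limma p under 0.05. Pik3r5, Akt1 and Pik3r1 did not pass. The median size of the difference was 0.61 on the log2 scale over the 8 genes and 0.16 over all genes. The genes, and the pathway lists below, were chosen with earlier results of these data known. Shares of all genes or probe sets are therefore given for scale and do not test the set. Differences below are Vav-SB minus CD4-SB on the log2 scale, with standard errors (SE) and 95% intervals from the same fit.

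**Figure D1:**
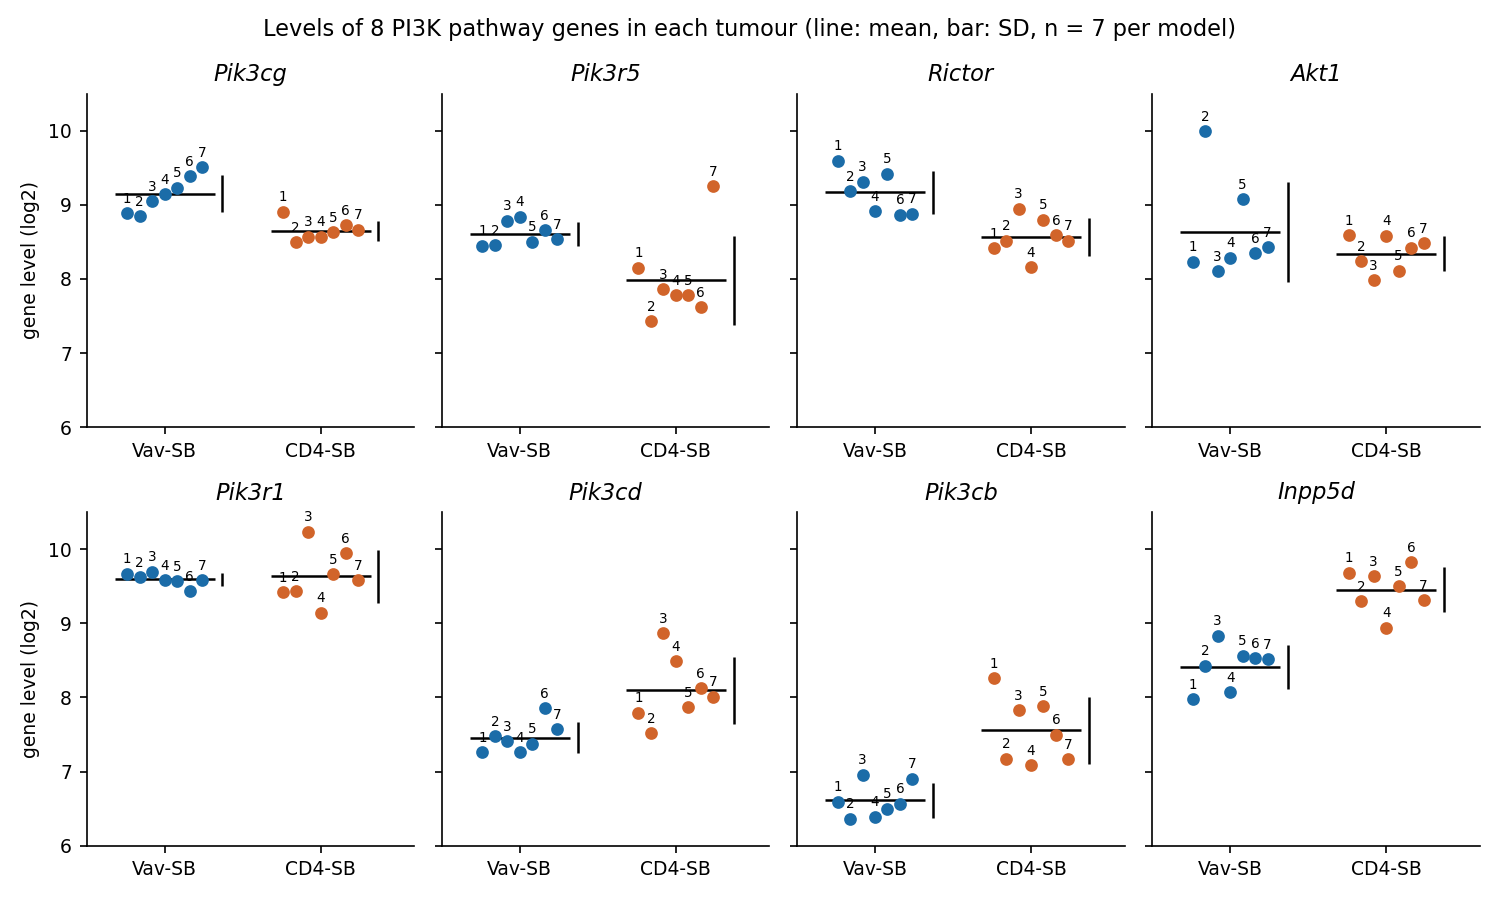
Gene level (log2) of the 8 genes in each tumour, by model; numbers beside the points are replicates, the line is the mean and the bar the SD of 7 tumours. Inpp5d and Pik3cb do not overlap between the models, Akt1 reaches 9.99 in Vav-SB replicate 2, and Pik3r5 reaches 9.25 in CD4-SB replicate 7.

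For 3 of the genes past the threshold, those with a single start site in the table used, the 250 bases before that start are shown because Inpp5d and Pik3cb moved together and Rictor moved the other way. The sequences are those of RefSeq on GRCm38.p6, read 5′ to 3′ on the gene's strand, and capitals mark AGGAAG (a core bound by ETS factors) or GGGCGG (a GC box), on either strand. The windows are chr1:87620062-87620311 (plus strand) for Inpp5d, chr9:99140212-99140461 (minus strand) for Pik3cb and chr15:6708131-6708380 (plus strand) for Rictor. All 8 measured genes matched the table.
Inpp5d: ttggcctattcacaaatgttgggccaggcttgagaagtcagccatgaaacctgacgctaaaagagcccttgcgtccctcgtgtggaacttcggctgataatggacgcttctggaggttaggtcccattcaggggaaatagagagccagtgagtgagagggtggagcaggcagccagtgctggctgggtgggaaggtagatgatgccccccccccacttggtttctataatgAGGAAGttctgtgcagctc
Pik3cb: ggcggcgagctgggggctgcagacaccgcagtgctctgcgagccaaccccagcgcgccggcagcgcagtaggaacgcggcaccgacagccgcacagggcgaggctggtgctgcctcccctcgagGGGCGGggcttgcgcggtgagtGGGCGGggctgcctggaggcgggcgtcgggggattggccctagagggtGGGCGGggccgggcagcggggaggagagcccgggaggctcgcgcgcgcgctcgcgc
Rictor: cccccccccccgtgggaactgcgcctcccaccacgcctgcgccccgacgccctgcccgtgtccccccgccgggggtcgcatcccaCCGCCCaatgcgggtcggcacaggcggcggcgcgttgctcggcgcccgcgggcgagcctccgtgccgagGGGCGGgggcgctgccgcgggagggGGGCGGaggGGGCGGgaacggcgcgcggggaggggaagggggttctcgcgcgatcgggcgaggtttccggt
Inpp5d held 1 AGGAAG and no GGGCGG, Pik3cb held 3 GGGCGG and Rictor 4, and neither Pik3cb nor Rictor held AGGAAG. Of all 32851 windows of this length in the table, 29.5% held AGGAAG and 32.7% held GGGCGG. The runs TGTGGT (bound by RUNX factors) and CAGGTG (an E-box) were searched on both strands as well, occurred in 14.0% and 17.2% of windows, and were in none of these 3. The motifs are letters in a window and were not compared with binding data.

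Among the catalytic subunits, Pik3cb, which encodes the beta subunit found in most tissues, ranged from 6.36 to 6.96 in Vav-SB (median 6.57) and from 7.08 to 8.26 in CD4-SB (median 7.50). No tumour of either model reached into the other's range, and 1.53% of all genes were separated in this direction. Replicate 1 was the highest CD4-SB tumour, and replicates 2, 4 and 7 lay together at 7.17, 7.08 and 7.17. The difference was -0.94 ± 0.18 (SE; 95% interval -1.33 to -0.56; limma adjusted p = 0.00330), or 1.92-fold. Its mean level of 7.08 lay below the median of 7.22 over all genes. With only probe sets brighter than the median of all probe sets, the difference was -1.33 (limma adjusted p = 0.00226). The call ended with the marker covariate, where the difference was -0.33 (adjusted p = 0.296), and with the 2 CD4-SB tumours within the Vav-SB marker range, where it was -0.56 (adjusted p = 0.101).

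Pik3cd encodes the delta subunit, the main PI3K of lymphocytes below antigen receptors. It ran from 7.26 to 7.85 in Vav-SB (median 7.41) and from 7.52 to 8.87 in CD4-SB (median 8.01), with CD4-SB replicates 3 and 4 highest at 8.87 and 8.48. The models overlapped: CD4-SB replicates 1 and 2 lay below the highest Vav-SB tumour, replicate 6, and the other 5 above it. The difference was -0.64 ± 0.18 (SE; limma adjusted p = 0.0264), and it did not pass without Vav-SB replicate 1, 4 or 5 (adjusted p up to 0.0547). It also did not pass with the marker covariate (-0.36, adjusted p = 0.457) or with the 2 CD4-SB tumours within the Vav-SB marker range (-0.31, adjusted p = 0.376).

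Pik3cg encodes the gamma subunit of the class IB enzyme, which is largely restricted to blood cells. It was at 8.84 to 9.51 in Vav-SB (median 9.14) and at 8.50 to 8.91 in CD4-SB (median 8.63). Only CD4-SB replicate 1, at 8.91, reached into the Vav-SB range, where replicates 1 and 2 were lowest at 8.89 and 8.84. The difference was 0.50 ± 0.11 (SE; 95% interval 0.27 to 0.73; limma adjusted p = 0.00763), or 1.41-fold. It was 0.61 with the marker covariate and 0.57 with the 2 CD4-SB tumours within the Vav-SB marker range, and passed in neither (adjusted p = 0.0555 and 0.111). Set against Pik3cb on the same array, Pik3cg shifted by 2.72-fold between the models. The log2 difference between these genes averaged 2.54 ± 0.27 (SD, n = 7) over Vav-SB tumours and 1.10 ± 0.37 (SD, n = 7) over CD4-SB tumours. Both genes had already been called, in opposite directions, so this shift restates their differences and is no separate support.

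Pik3r5, the class IB regulatory subunit, had 1 CD4-SB tumour far above the others. Its level was 8.45 to 8.84 in the Vav-SB tumours (median 8.53) and 7.43 to 9.25 in the CD4-SB tumours (median 7.78), with SDs of 0.16 and 0.60. Without CD4-SB replicate 7 the SD of that model was 0.24 (n = 6). CD4-SB replicate 7 was above every Vav-SB tumour, and the other 6 CD4-SB tumours, at 7.43 to 8.15, were below every Vav-SB tumour. The difference was 0.62 ± 0.22 (SE; 95% interval 0.16 to 1.09; limma adjusted p = 0.0710). Without CD4-SB replicate 7 it was 0.83 (adjusted p = 0.000411), and with 1 tumour per title number, which also leaves out that tumour, it was 0.71 (adjusted p = 0.00265). Array weights gave 0.61 (adjusted p = 0.0376), and the marker covariate 0.50 (adjusted p = 0.428).

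The rise in CD4-SB replicate 7 ran along the gene. Of the 20 Pik3r5 probe sets, 19 were highest in this tumour among the 7 CD4-SB tumours, and all 20 lay above the median of the other 6, by a median of 1.55 on the log2 scale (2.93-fold). At gene level and in 5 probe sets it stood apart, meaning that the gap to the next tumour was at least 1 on the log2 scale and past Dixon's limit for 7 values. Of all genes, 3.8% had a tumour that stood apart in this way, and 2.11% had one at the top of CD4-SB. In probe set 4458039 it was at 8.88 and the next CD4-SB tumour at 6.69. Replicates 5 and 6, whose titles carry the same first number, were at 7.78 and 7.62 for the gene. Of 7638 genes with at least 10 probe sets, 0.223% showed at least 9 in 10 probe sets highest in this tumour with a median excess of at least 1.5, limits set after seeing these values. Pik3cg, its catalytic partner, was at 8.67 in the same tumour, within the 8.50 to 8.91 of the CD4-SB tumours.

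Akt1 encodes a serine/threonine kinase that promotes survival and growth. Its level was 8.10 to 9.99 in Vav-SB (median 8.35) and 7.98 to 8.59 in CD4-SB (median 8.42). Vav-SB replicates 2 and 5, at 9.99 and 9.08, lay above all other tumours, and the remaining 5 Vav-SB tumours were within the CD4-SB range. The difference between the models was 0.30 ± 0.25 (SE; 95% interval -0.23 to 0.83; limma adjusted p = 0.494), and without Vav-SB replicate 2 it was 0.07 (adjusted p = 0.839). The interval leaves room for a difference of 0.83 in favour of Vav-SB.

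In Vav-SB replicate 2, 15 of the 16 Akt1 probe sets were the highest of the 7 Vav-SB tumours, and 14 exceeded the median of the other 6 by more than 1 on the log2 scale. The median excess was 1.78 (3.44-fold) and the greatest 2.47. The exception was probe set 4926349, which was at 8.26 in this tumour and at 8.22 to 8.66 in the 7 Vav-SB tumours. At gene level replicate 2 did not stand apart in the sense used for Pik3r5, as 1.13% of all genes did at the top of Vav-SB. In probe set 5438177 it did, at 8.51 against 7.10 in the next tumour, replicate 5. Vav-SB replicate 5 lay above the median of the others in 15 probe sets too, by a median of 0.73 (1.66-fold). By the same limits as for Pik3r5, 0.105% of 7638 genes were as uniformly raised in Vav-SB replicate 2. The positions of probe sets along their genes were not used here.

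**Figure D2:**
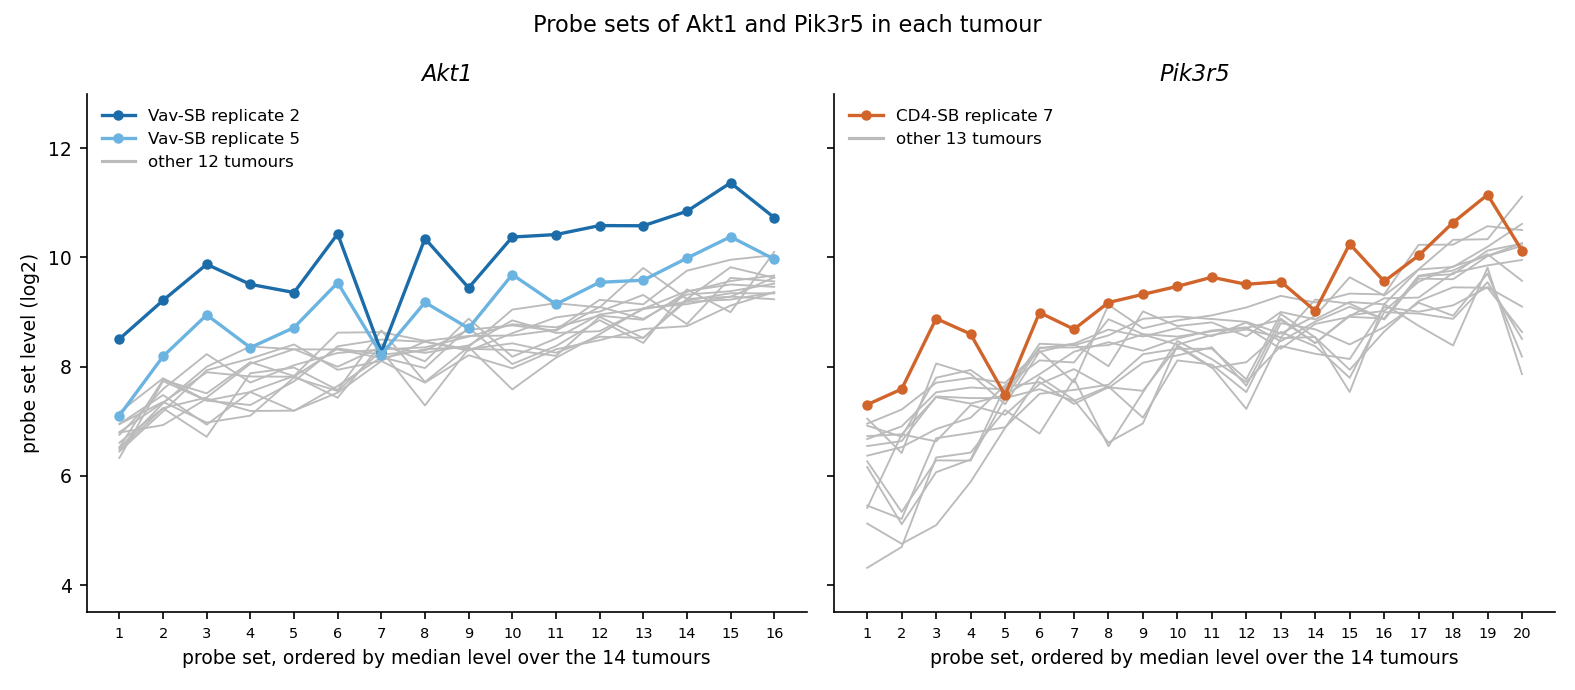
Level (log2) of each probe set of Akt1 (16, left) and Pik3r5 (20, right) in each of 14 tumours, a line per tumour, with probe sets ordered by their median level and not by position. Akt1 in Vav-SB replicate 2 lies above the other tumours except in the probe set at 8.26, and Pik3r5 in CD4-SB replicate 7 is the highest of its model in 19 of 20.

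Pik3r1 encodes the main class IA regulatory subunit, which stabilises and restrains the catalytic subunits. It was at 9.43 to 9.70 in Vav-SB (median 9.58) and 9.14 to 10.24 in CD4-SB (median 9.58). The CD4-SB tumours had an SD of 0.36, beside 0.09 in Vav-SB, and their replicates 3 and 6 were highest at 10.24 and 9.94, with replicate 4 lowest at 9.14. The difference was -0.04 ± 0.14 (SE; 95% interval -0.33 to 0.25; limma adjusted p = 0.894). In CD4-SB replicate 3, which was also highest for Pik3cd, 16 of 20 Pik3r1 probe sets were the highest of the model and the median excess was 0.62.

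Inpp5d differed most among the 8 genes. It ran from 7.97 to 8.83 in Vav-SB (median 8.52) and from 8.94 to 9.82 in CD4-SB (median 9.50), with no overlap. Vav-SB replicates 1 and 4, at 7.97 and 8.07, were lowest, and CD4-SB replicate 4, at 8.94, was the lowest of its model. The difference was -1.04 ± 0.15 (SE; 95% interval -1.37 to -0.72; limma adjusted p = 0.000537), or 2.06-fold. With the marker covariate it was -0.72 and did not pass (adjusted p = 0.0753), and with the 2 CD4-SB tumours within the Vav-SB marker range it was -0.89 and passed (adjusted p = 0.0432).

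The lower level of Inpp5d in Vav-SB did not extend to every probe set. Of 34 probe sets, 29 were lower in Vav-SB at an adjusted p under 0.05 over all 179496 probe sets, a direction in which 3.99% of all probe sets passed. Differences ran from -1.68 to 0.15, with a median of -1.17. The 4 probe sets nearest to or above 0 differed from the rest of the gene (limma diffSplice, adjusted over 177027 probe sets, of which 1.33% passed). In probe set 4558960 the means were 9.85 (Vav-SB) and 9.70 (CD4-SB), which is 1.23 higher relative to the rest (adjusted p = 2.45e-05). In probe set 4907598 the means were 9.48 and 9.62, or 0.93 higher relative to the rest (adjusted p = 0.00498). Probe sets 5139361 and 5392752 were 0.76 higher each relative to the rest (adjusted p = 0.0444 and 0.0483).

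All 22 probe sets of Pik3cb were higher in CD4-SB, 11 of them past the threshold, with differences from -1.89 to -0.11. The largest, in probe set 5353883, exceeded the rest of the gene (a relative difference of -0.996, diffSplice adjusted p = 0.0430), with means of 6.35 in Vav-SB and 8.24 in CD4-SB. Pik3cb held further probe sets at low levels, down to a mean of 4.78, where folds are understated. On simulated data, with 177027 probe sets tested, diffSplice also called 368 probe sets of unchanged genes. There a fit of each probe set against the mean of the others with its own variance called 13. The simulated probe sets of a gene varied independently of each other within a model, so these counts describe that setting only. In the real data the own-variance fit, chosen after seeing the data, called 10 probe sets of these genes, among them all 5 of those above, and 1.77% of all probe sets. Its adjusted p was 0.00713 for 4558960, 0.00544 for 4907598, 0.0215 for 5139361, 0.0357 for 5392752 and 0.0483 for 5353883.

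**Figure D3:**
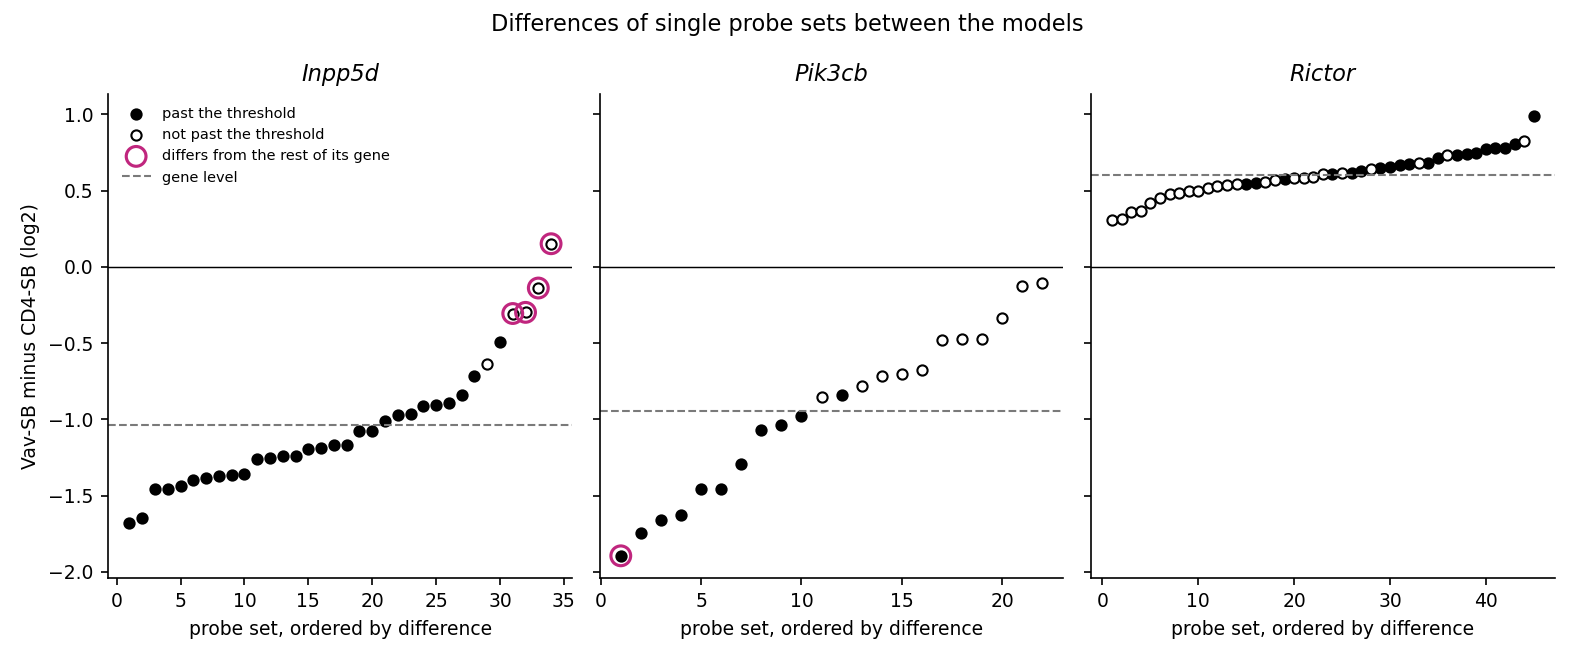
Difference Vav-SB minus CD4-SB (log2) of each probe set of Inpp5d (34), Pik3cb (22) and Rictor (45), in order of the difference; filled points passed the threshold, rings mark those unlike the remainder of their gene and the dashed line is the gene level. The 4 ringed Inpp5d probe sets lie between -0.31 and 0.15, and all Rictor probe sets lie above 0.

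Rictor encodes the defining subunit of mTOR complex 2, which phosphorylates Akt. It was at 8.87 to 9.59 in Vav-SB (median 9.18) and at 8.16 to 8.95 in CD4-SB (median 8.52). Only CD4-SB replicate 3, at 8.95, reached into the Vav-SB range, above replicates 4, 6 and 7 at 8.91, 8.87 and 8.88. The difference was 0.60 ± 0.14 (SE; 95% interval 0.30 to 0.91; limma adjusted p = 0.0109), or 1.52-fold, and with 1 tumour per title number the adjusted p was 0.0555. The difference was 0.72 with the marker covariate and 0.65 with the 2 CD4-SB tumours within the Vav-SB marker range, and passed in neither (adjusted p = 0.0860 and 0.105). All 45 probe sets were higher in Vav-SB and 20 passed the threshold, a direction in which 4.53% of all probe sets passed, with differences from 0.31 to 0.99. No probe set of Rictor differed from the rest of its gene (lowest adjusted p = 0.553).

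Of the other genes, Pik3cg was higher in Vav-SB in all 12 probe sets, 5 of them past the threshold, and Pik3cd was higher in CD4-SB in 24 of 26, 9 of them past it. Pik3r5 had 18 of 20 probe sets higher in Vav-SB and 1 past the threshold. For Akt1 and Pik3r1, 0 of 16 and 0 of 20 passed, and 0 and 1 had an unadjusted limma p under 0.05. In all, 75 of the 195 probe sets passed, or 38.5%, beside 8.52% of all probe sets. A single tumour stood apart in 8 of the 195 probe sets, or 4.10%, where 5.2% of all probe sets had such a tumour. Besides the 5 of Pik3r5 and the 1 of Akt1, these were a Pik3cb probe set, 5097165, high in CD4-SB replicate 1 (6.69), and an Inpp5d probe set, 4997694, low in Vav-SB replicate 1 (5.68).

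With the marker covariate the differences of Pik3cg and Rictor were larger than without it, and those of Inpp5d, Pik3cd and Pik3cb smaller. In CD4-SB replicates 2 and 7, whose marker level lay within the Vav-SB range, Inpp5d was at 9.30 and 9.31, above every Vav-SB tumour, and Pik3cb at 7.17 in both, also above. In the same tumours Pik3cg was at 8.50 and 8.67 and Rictor at 8.52 and 8.51, below every Vav-SB tumour, and Pik3cd was at 7.52 and 8.01 against 7.26 to 7.85.

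**Figure D4:**
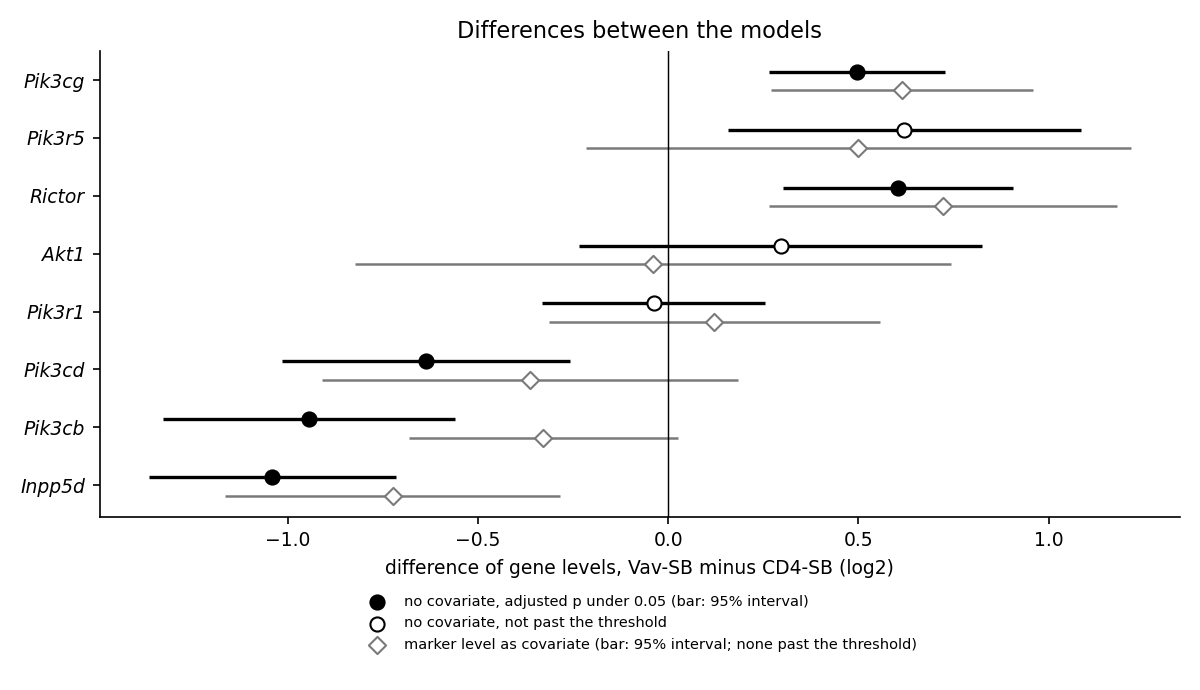
Difference Vav-SB minus CD4-SB of gene levels (log2) with 95% intervals, without a covariate (circles, filled where the adjusted p was under 0.05) and with the marker level of other cell types as a covariate (diamonds). With the covariate Pik3cb moves from -0.94 to -0.33, while Pik3cg and Rictor move away from 0.

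Other genes of the pathway were read from 11 lists of 81 genes, of which 71 were measured. Past the threshold were 9 with Vav-SB higher and 12 with CD4-SB higher, or 29.6% in all beside 14.5% of all genes, and the median difference was 0.05 on the log2 scale, beside 0.00 over all genes. With the marker covariate 7 passed.

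Of 4 further class I subunits, 2 passed, both with Vav-SB higher. Pik3r3, a class IA regulatory subunit, differed by 1.75 (9.44 ± 0.43 against 7.69 ± 0.67; limma adjusted p = 0.000976), and by 2.08 with the marker covariate (adjusted p = 0.0154). Pik3ca, the alpha catalytic subunit, differed by 0.38 (adjusted p = 0.0373), a call that ended on leaving out any of 10 tumours (adjusted p at most 0.0809) and with the marker covariate (0.29, adjusted p = 0.373). Of the 4 measured genes of class II and III PI3K subunits 0 passed, and 0 had an unadjusted limma p under 0.05, among them Pik3c3 (0.07, adjusted p = 0.634).

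Of 9 adaptors and inhibitors, Vav-SB had 2 at a higher level and CD4-SB had 3. Trat1, a T-cell receptor adaptor that binds PI3K, differed by 3.40 (adjusted p = 0.00568), and Pik3ip1, an inhibitor of PI3K, by 0.55 (adjusted p = 0.0119). Pik3ap1, the adaptor BCAP of B and myeloid cells, differed by -0.86 (adjusted p = 0.00294) and Gab2, a docking protein, by -0.82 (adjusted p = 0.0141). With the marker covariate these 4 went to 2.95, 0.63, -0.29 and -0.30, and none passed (adjusted p = 0.157, 0.106, 0.267 and 0.535).

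Of 8 other phosphatases acting on phosphoinositides or Akt, 0 passed and 2 had an unadjusted limma p under 0.05 (Ppp2ca, a catalytic subunit of phosphatase 2A, was at 10.87 ± 0.08 and 10.84 ± 0.22). Of 5 adaptors that bind SHIP1 or act beside it, 2 were higher in CD4-SB, Dok3 (-0.36, adjusted p = 0.00833) and Dok1 (-0.51, adjusted p = 0.0215). Both lost the call when probe sets were summarised by their median (adjusted p = 0.0782 and 0.264) and with the marker covariate (adjusted p = 0.236 and 0.341).

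Of 4 kinases beside Akt1, Pdpk1, which phosphorylates Akt, and Gsk3b, a kinase that Akt inhibits, were higher in Vav-SB, by 0.42 and 0.37 (adjusted p = 0.00415 and 0.00454), with no overlap between the models. Both passed with the marker covariate (adjusted p = 0.0361 and 0.0345). Sgk3, a relative of Akt, was higher in CD4-SB (-1.27, adjusted p = 0.0145; -0.59 with the covariate, adjusted p = 0.461).

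Of 8 genes of the mTOR complexes, 1 was higher in each model. Mapkap1, the mTOR complex 2 subunit SIN1, was higher in Vav-SB by 0.49 (9.96 ± 0.16 against 9.47 ± 0.09; adjusted p = 0.00138), as was its partner Rictor, and it passed with the covariate (0.55, adjusted p = 0.0290). Prr5, another subunit of that complex, differed by -0.39 (adjusted p = 0.0244), but by -0.06 when summarised by the median probe set (adjusted p = 0.855), and its call ended without Vav-SB replicate 2 (adjusted p = 0.0538) and with the marker covariate (-0.53, adjusted p = 0.0837).

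Of 8 genes of the TSC, Rheb and S6 kinase branch, Rps6kb2, an S6 kinase, was higher in Vav-SB (0.30, adjusted p = 0.0293) and Eif4ebp1, an inhibitor of translation, in CD4-SB (-0.55, adjusted p = 0.0181). The call of Rps6kb2 ended on leaving out Vav-SB replicate 2, 5, 6 or 7 (adjusted p at most 0.0621) and with the median summary (adjusted p = 0.252), but it passed with the marker covariate (0.50, adjusted p = 0.0240). Taking 1 tumour per title number ended the calls of both Rps6kb2 and Eif4ebp1 (adjusted p = 0.0882 and 0.0521), and Eif4ebp1 did not pass with the marker covariate either (-0.62, adjusted p = 0.135). None of the 4 FoxO factors, which Akt keeps out of the nucleus, passed and 1 had an unadjusted limma p under 0.05; Foxo3 was at 8.87 ± 0.22 and 8.66 ± 0.42. Of 9 genes that FoxO factors activate, 3 had an unadjusted limma p under 0.05 and 1 passed: Ccng2, a cyclin, was higher in Vav-SB by 1.15 (adjusted p = 0.000588) and by 1.43 with the covariate (adjusted p = 0.00682). Insr, the insulin receptor, named after its values were seen, passed with the covariate (1.26, adjusted p = 0.0481) and not without it (0.65, adjusted p = 0.0962).

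Of 8 genes listed as effectors that bind PIP3 or a lipid made from it, 4 passed, all of them higher in CD4-SB. These were also the 4 with an unadjusted limma p under 0.05. The kinase genes Btk and Tec differed by -1.30 and -0.91 (adjusted p = 0.00173 and 0.00291), Adap1 by -1.004 (adjusted p = 0.00154) and Plekha1 by -1.07 (adjusted p = 0.0213). Btk is known from B and myeloid cells. With the marker covariate the 4 went to -0.62, -0.36, -0.96 and -0.42 and did not pass (adjusted p = 0.181, 0.268, 0.0649 and 0.566).

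**Figure D5:**
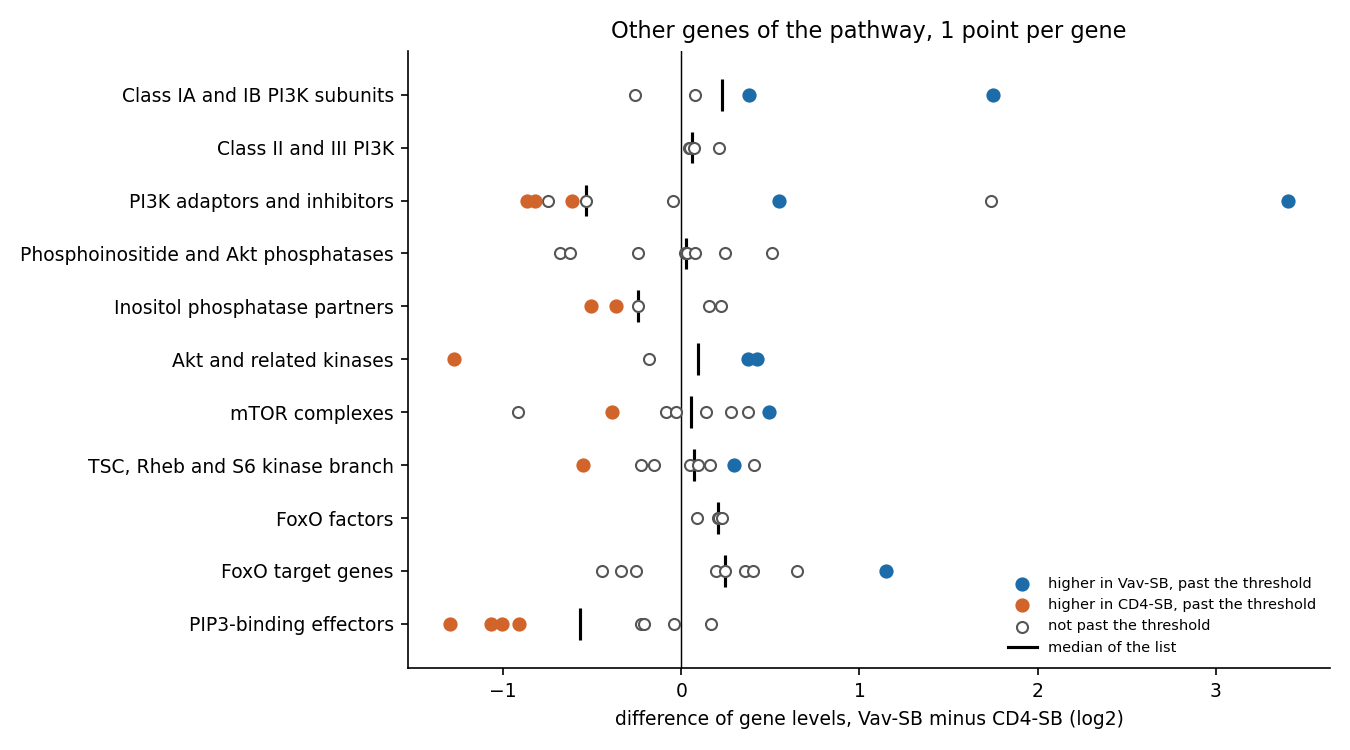
Difference Vav-SB minus CD4-SB of gene levels (log2) for 71 other genes of the pathway, a point per gene and a row per list; the vertical mark is the list's median. Filled points passed the threshold: all 4 in the row labelled PIP3-binding effectors are higher in CD4-SB, and Trat1 lies farthest to the right at 3.40.

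The genes whose pattern lay nearest to each of the 8 were found among 14157 genes with at least 3 probe sets, by the mean absolute difference of centred levels over the 14 tumours. They were Cd37 (0.14) and Cgrrf1 (0.17) for Inpp5d, where the median over all genes was 0.56. For Pik3cb they were Tdrd7 (0.14) and Pla2g4a (0.15), and for Pik3cd Trafd1 and Pold4 (0.17 each). For Pik3cg they were Vash1 (0.10) and Mapkap1 (0.11), and for Rictor Phf20l1 (0.13) and Tnrc6b (0.15). For Pik3r5 (Amer1 and Mbtd1, 0.20 each) and Akt1 (Aars, 0.21, and Ccdc127, 0.22) the nearest genes lay farther away, and for Pik3r1, which varied little, they were Chrdl1 and Phf1 (0.10 each). A gene that varies little lies near many others by this measure.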

How the data were processed

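RNA of 14 tumours was hybridised to mouse exon arrays. The authors deposited log2 values per probe set; RMA and Partek are named, without versions, in the submitters' processing notes. With the log base and background step not given in the sources used here, values from 2.03 to 14.03 were read as log2. Column medians of 7.46 to 7.50 hide any change in total RNA, and 7 arrays per model limit precision. Of 194293 probe sets, 179496 had 1 symbol, 1328 several and 13469 none in the platform annotation, and symbols were updated through a table of GRCm38.p6. Groups came from the strain label. Gene means, single probe sets and diffSplice were fitted with limma 3.58.1 in R 4.3.3 over the whole table and adjusted by Benjamini-Hochberg at 0.05; marker levels were tested by exact permutation over 3432 splits. The gene fit, checked on simulated data for 15803 genes, recovered 46% of differences of 0.5, 84% of 1, 92% of -1 and 100% of 2, with 12 calls among unchanged genes. The simulated tumours were independent, and a smaller share of genes was changed than was called here, so these rates describe that setting only. Genes, lists and tests were chosen with earlier results of these data known. Named were all members, up to 4 genes past the threshold per list by adjusted p (otherwise the brightest), up to 4 probe sets per gene apart from it or with a tumour apart, and the 2 nearest genes. Alternatives were other summaries, filters, weights, priors, normalization, blocks, covariates and left-out tumours. Marker lists of NK cells and of erythroid cells and platelets had 0 of 4 and 0 of 4 measured genes past the limma threshold, and 1 each at an unadjusted p under 0.05.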

Additional observations from a re-analysis of the deposited data

Results flagged for a closer look

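Of 64 sets of 7 tumours (32 values in each model), 5 held a tumour far from the others by Dixon's test, which chance flags in about 1 of 20 sets. Pik3r5 was at 9.25 in CD4-SB replicate 7, against 8.15 in the next tumour. Pik3r3 was at 9.05 in CD4-SB replicate 1, against 7.79 in the next. Eif4ebp1 was at 8.69 in Vav-SB replicate 2, against 8.004 in the next, and Pik3c3 was lowest in that tumour at 8.75, against 9.03. Trat1 was at 4.89 in Vav-SB replicate 3, against 8.70 in the next lowest tumour. Akt1 in Vav-SB replicate 2 did not meet this criterion, since replicate 5 lay between it and the others.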

How the results depend on the processing

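No paired analysis was possible because the labels give no replicate numbers shared between the models. Counts were 2284 genes in all, 2 of the 8 higher in Vav-SB, 3 higher in CD4-SB and 21 other pathway genes; with the marker covariate they were 452, 0, 0 and 7. With only the 2 CD4-SB tumours within the Vav-SB range of marker level, they were 575, 0 and 1 (Inpp5d, -0.89, limma adjusted p = 0.0432). That alternative was chosen after seeing the data, and calls among all other pathway genes were not counted in it. Of the 8 genes and the 23 other pathway genes named by rule, 18 lost their call there. Probe sets against the rest of their gene numbered 5, and 10 with an own variance per probe set. Signs turned with the marker covariate for Akt1 (-0.039), Pik3r1 (0.12) and Ppp2ca (-0.18), and with the 2 CD4-SB tumours for Pik3r1 (0.087), Pik3c3 (-0.043) and Ppp2ca (-0.16); the cause was not tested. With single tumours left out, counts ran from 1628 to 2518 genes, 2 to 3 and 2 to 3 of the 8, 52 to 87 of their probe sets (75 with all tumours), 2 to 5 probe sets against the rest and 17 to 25 other genes, and the marker difference from -0.87 to -0.67. Pik3r1 ran from -0.12 to 0.063 and Ppp2ca from -0.011 to 0.0995, the only signs that turned. Pik3cb, Pik3cg, Inpp5d and Rictor kept their calls in all 14 of these.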
